A study of Homo sapiens with 12 samples.

Results

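The HOXD cluster genes are 9 homeobox genes that lie side by side on human chromosome 2. The members were taken by name, HOXD13, HOXD12, HOXD11, HOXD10, HOXD9, HOXD8, HOXD4, HOXD3 and HOXD1, with their gene bodies from RefSeq (GRCh38.p14), out of 20037 protein-coding genes on the chromosomes. Their span, from the low end of HOXD13 to the high end of HOXD1, is chr2:176087487-176190907, which is 103421 bp. The gene bodies take up 51712 bp of it, with 698 bp shared by HOXD4 and HOXD3. Member bodies ranged from 1677 bp (HOXD4) to 20570 bp (HOXD3).

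HOX genes encode transcription factors that give cells their position along the body axis. Within a cluster the genes are switched on in the order in which they lie, from the HOXD1 side towards the HOXD13 side, during development. Where they are silent, Polycomb repressive complex 2 marks the chromatin with trimethylation of lysine 27 on histone H3 (H3K27me3), and HOX clusters are a textbook site of broad H3K27me3 domains. Lysine succinylation (Ksu) is an acyl mark derived from succinyl-CoA, carried by histones and by many other proteins.

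The libraries are CUT&Tag, in which an antibody directs a transposase to chromatin and the released fragments are sequenced. All come from HepG2/C3A, a line derived from HepG2 hepatocellular carcinoma cells, so that one line stands for hepatocytes. Cells were treated for 48 h with 10 mM sodium succinate or served as control, which the design text calls vehicle. For each treatment and each antibody, H3K27me3 or pan-Ksu, there were 2 libraries labelled as biological replicates. The 4 IgG samples were not analysed here, so no value is set against an antibody background.

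Each library is a list of peaks made with SEACR, which joins neighbouring covered bases into blocks and keeps those with enough total signal. Cover is the percentage of a gene body or span that lies under peaks. H3K27me3 lists held 5531 to 19133 peaks and covered 3.79% to 6.45% of the chromosomes, and Ksu lists held 76702 to 629903 peaks and covered 2.60% to 10.7%. Read depth is unknown, and signal was scaled differently in each list. The longest list, control H3K27me3 replicate 1, also reached lowest when signal is counted in steps (a step is the smallest unit of signal in a library). Its lowest listed total signal was 51892 steps, against 132374 to 330250 steps in the other H3K27me3 libraries. The Ksu lists differed more. Their lowest listed total signal was 8977 and 76 steps in control replicates 1 and 2, and 4247 and 49 steps in succinate replicates 1 and 2. With depth unknown, a step need not stand for the same strength in each library. With 2 libraries against 2, the exact permutation test has 6 arrangements and cannot give a p below 0.333, so no difference between treatments could pass 0.05. These p-values measure only the spread between the libraries.

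H3K27me3 lay over 8 of the 9 HOXD gene bodies in each of the 4 libraries, where 12.3% of all protein-coding genes were overlapped in every library. Of the members, 6 were wholly covered in each library, against 2.72% of all genes. The mark formed broad blocks over the HOXD13 side and the middle of the cluster, stopped inside HOXD3 and left HOXD1 bare, as the map of peaks over the cluster shows.

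**Figure D1:**
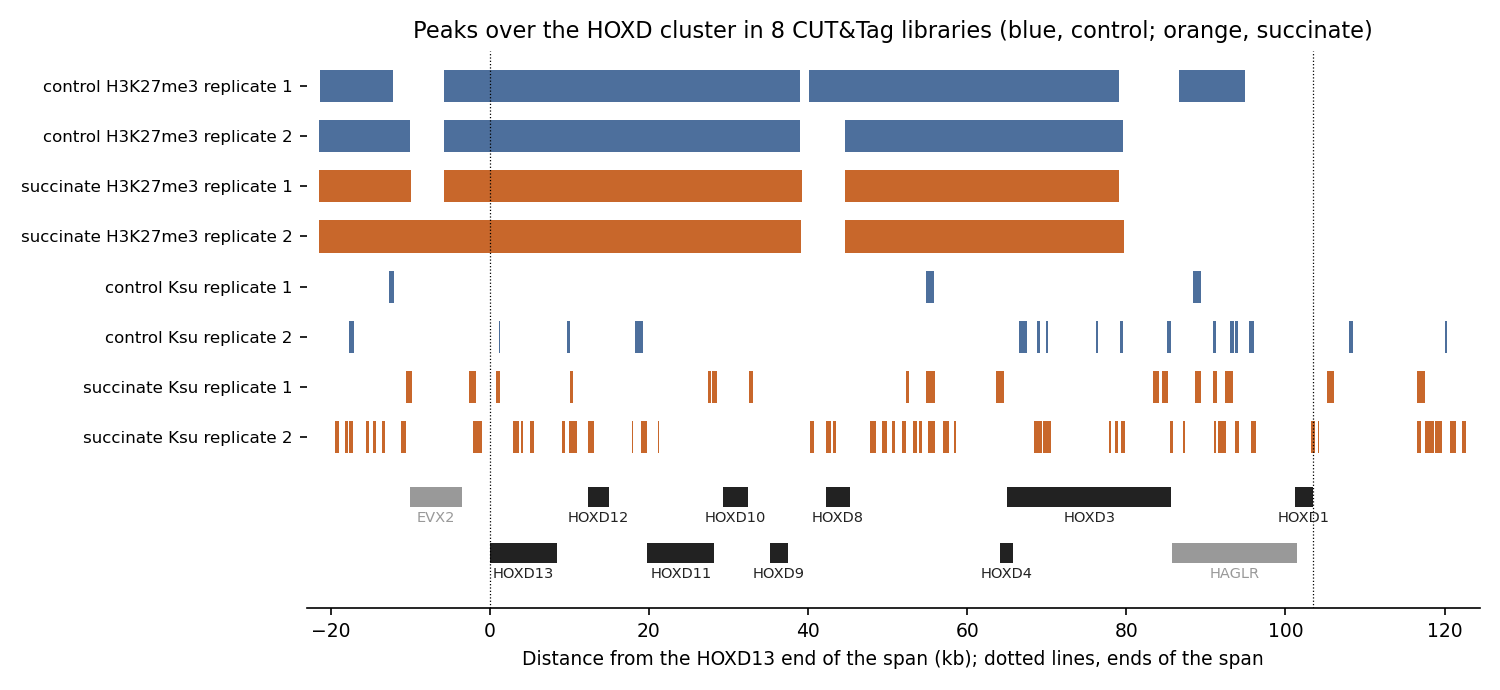
Peaks over the HOXD span and its flanks in each library; the x axis is the distance in kb from the HOXD13 end of the span, each row is a library, bars are listed peaks and the lower rows are gene bodies. The H3K27me3 blocks end at nearly the same places in the 4 libraries, apart from the HOXD8 side, the HAGLR block of control replicate 1 and the joined EVX2 side of succinate replicate 2, while Ksu peaks are short and scattered.

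The promoters of the members show which starts lie under the mark. RefSeq promoter windows (GRCh38.p14, 250 bases before to 50 after the start, all on the plus strand) matched 8 of the 9 members, all but HOXD9. The windows printed are those of the members outside the mark in 3 or 4 libraries, HOXD8 and HOXD1, and of a pair inside it in every library, HOXD10 and HOXD4. Capitals mark each CG dinucleotide, the motif counted here, which reads the same on both strands.
HOXD8 (chr2:176129455-176129754): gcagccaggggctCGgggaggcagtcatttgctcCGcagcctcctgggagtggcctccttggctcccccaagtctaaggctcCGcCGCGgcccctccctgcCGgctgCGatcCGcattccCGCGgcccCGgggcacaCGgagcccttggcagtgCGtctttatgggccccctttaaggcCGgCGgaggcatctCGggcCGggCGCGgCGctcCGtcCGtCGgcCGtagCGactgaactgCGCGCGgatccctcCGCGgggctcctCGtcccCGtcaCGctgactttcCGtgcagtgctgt
HOXD1 (chr2:176188418-176188717): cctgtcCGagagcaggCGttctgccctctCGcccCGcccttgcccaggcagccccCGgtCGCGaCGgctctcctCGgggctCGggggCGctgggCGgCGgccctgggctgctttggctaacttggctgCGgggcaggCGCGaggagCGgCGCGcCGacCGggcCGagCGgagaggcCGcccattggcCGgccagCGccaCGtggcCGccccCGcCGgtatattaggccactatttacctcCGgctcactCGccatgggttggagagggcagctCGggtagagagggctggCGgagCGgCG
HOXD10 (chr2:176116528-176116827): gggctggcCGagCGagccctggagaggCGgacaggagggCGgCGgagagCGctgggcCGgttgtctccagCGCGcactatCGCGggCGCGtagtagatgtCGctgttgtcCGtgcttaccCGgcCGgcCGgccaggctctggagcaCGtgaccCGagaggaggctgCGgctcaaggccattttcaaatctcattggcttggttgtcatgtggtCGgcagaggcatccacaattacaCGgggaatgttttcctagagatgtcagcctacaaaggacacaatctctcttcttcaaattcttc
HOXD4 (chr2:176151300-176151599): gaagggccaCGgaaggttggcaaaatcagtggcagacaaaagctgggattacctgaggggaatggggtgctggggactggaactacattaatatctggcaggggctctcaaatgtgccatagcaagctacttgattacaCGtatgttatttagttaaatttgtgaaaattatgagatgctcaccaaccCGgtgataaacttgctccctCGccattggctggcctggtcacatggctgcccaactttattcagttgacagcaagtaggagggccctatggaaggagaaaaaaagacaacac

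HOXD1 had 36 CG and HOXD8 had 34, the most among the 8 windows. The other members had 27 (HOXD11), 25 (HOXD3), 24 (HOXD13), 23 (HOXD10), 19 (HOXD12) and 4 (HOXD4), where the median of 35116 promoters in the table was 14. Windows with as many CG as HOXD1 or more made up 12.7% of all promoters, and 15.6% had as many as HOXD8 or more. Of the 8 windows, 6 were wholly covered by H3K27me3 in each of the 4 libraries, against 8% of all promoters. The HOXD1 window was overlapped in no library, as were 81.6% of all promoters. The HOXD8 window was wholly covered in control replicate 1 and not overlapped in the other 3 libraries. Over all promoters, 8.47% of the 5476 windows with 34 or more CG were wholly covered in every library, and 7.91% of the 29640 with fewer. Only this split, at the HOXD8 number, was made. How cover goes with the number of CG below 34 was not tested.

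The members on the HOXD13 side were alike. HOXD13 and HOXD12, which pattern digits and the urogenital tract, HOXD11, which patterns the forearm, HOXD10 and HOXD9, which act in the hindlimb and lumbar spinal cord, were each covered at 100% in both control and both succinate libraries. The stretches between them were covered at 100% as well. HOXD4, a gene of the neck vertebrae and hindbrain on the other side of HOXD8, was also at 100% in every library. For these 6 genes the controls were at the ceiling of the measure, so a gain with succinate could not show. A loss of cover could have shown, and none was seen. The blocks over these genes held 7.90 to 44.8 times the lowest total signal listed in their libraries. A fall in signal within a block therefore need not lower the cover.

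HOXD8, a gene of the trunk, was the member that differed most between libraries. Its H3K27me3 cover was 100% and 17.3% in the controls and 20.1% and 19.1% with succinate. Control replicate 1 was high and the other 3 libraries lay close together, so the treatments overlapped. The mean was 58.6% ± 58.5 (SD, n = 2) in the controls and 19.6% ± 0.709 (SD, n = 2) with succinate, a difference of -39.0 percentage points (pooled SD 41.4; exact permutation p = 1). In those 3 libraries the covered part was the high end of the gene, and its start was bare.

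HOXD3, which patterns the upper neck vertebrae, was covered in part. Its cover was 68.3% and 70.8% in the controls and 68.4% and 71.4% with succinate, and the groups overlapped. The difference was 0.36 percentage points (pooled SD 1.93; exact permutation p = 0.667). The HOXD3 start used for the promoter window is 176157307, inside the gene body used for cover, which begins at 176152529. The block ended 9.27 and 9.78 kb past 176157307 in the controls and 9.30 and 9.91 kb past it with succinate. HOXD1, at the end of the cluster that is expressed first, had a cover of 0% in all 4 libraries, as had 75% of all genes. No member had higher H3K27me3 cover in both succinate libraries than in both controls, and none had lower, against 3.71% and 1.13% of all genes.

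**Figure D2:**
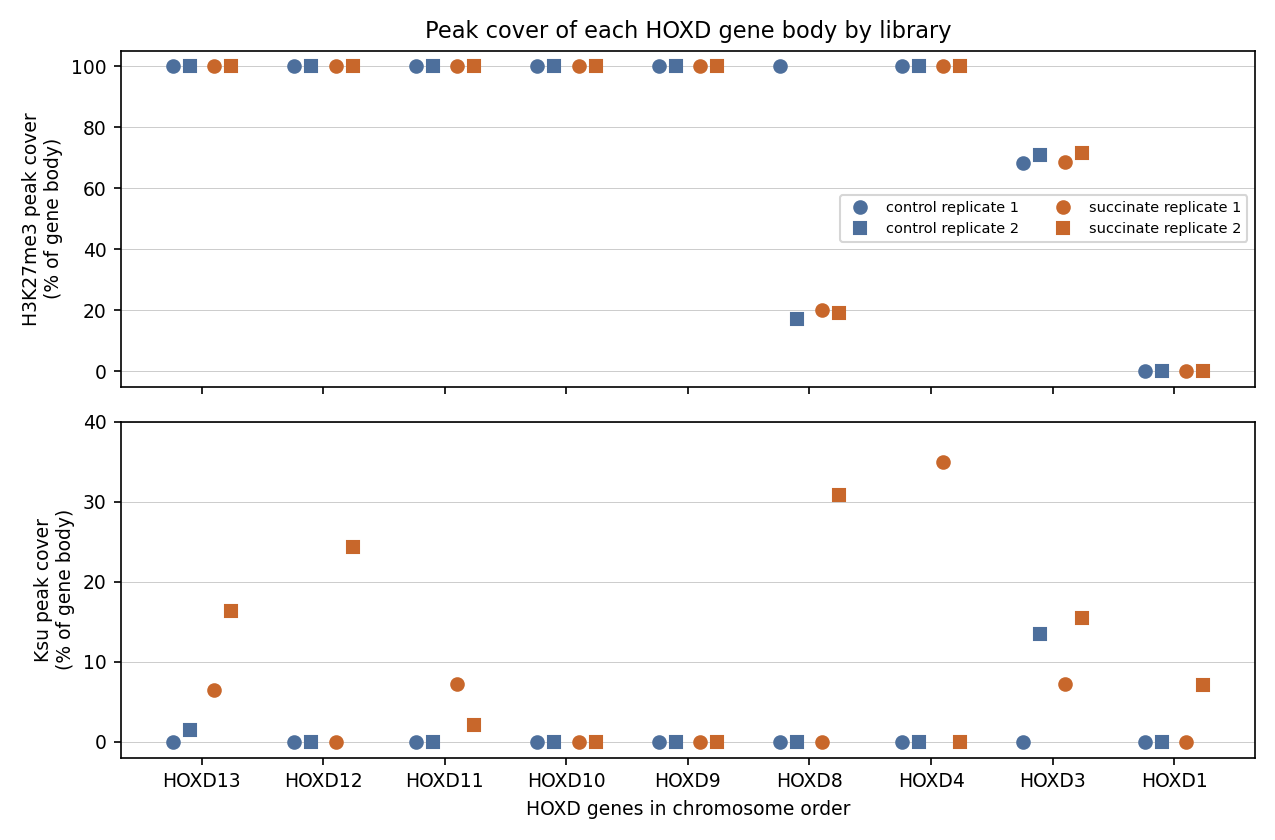
Peak cover of each HOXD gene body (percent of its bases) for H3K27me3 above and Ksu below, with 1 point per library; genes run in chromosome order. H3K27me3 is at 100% for 6 genes, differs between libraries at HOXD8 and is at 0% for HOXD1, while Ksu cover is at most 34.9%.

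The edges of the blocks were read to the base. The HOXD13-side block began at position 176081713, inside the flanking homeobox gene EVX2, in 3 libraries, with no difference between them. These were control replicates 1 and 2 and succinate replicate 1. Whether sequenced fragments can be placed at and just below that base was not checked. The block ended between HOXD9 and HOXD8, at 176126516 and 176126485 in the controls and at 176126703 and 176126596 with succinate. That is a range of 218 bp over blocks more than 44 kb wide. The next block began at 176132180 in control replicate 2 and at 176132095 and 176132125 with succinate, all inside HOXD8. In control replicate 1 it began at 176127623, before HOXD8. It ended inside HOXD3 at 176166581 and 176167089 in the controls and at 176166605 and 176167214 with succinate, a range of 633 bp. These edges therefore differed by less than 1 kb between libraries, apart from the HOXD8 edge of control replicate 1 and the start of the HOXD13-side block in succinate replicate 2.

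In succinate replicate 2 the HOXD13-side block reached further, from 176066023. The other 3 libraries had a separate block there, which began between 176066046 and 176066158 and ended between 176075282 and 176077566. The 4146 bp from 176077567 to 176081712 that part these blocks were covered in full in succinate replicate 2 and not at all in the other 3 H3K27me3 libraries. EVX2 was thus covered at 34.7% in both control libraries and at 36.1% and 100% with succinate. Measured from the low end of the span, the outer edge lay 5.77 kb outside in both controls and 5.77 and 21.5 kb outside with succinate, a difference of 7.85 kb (pooled SD 7.85; exact permutation p = 1). Without succinate replicate 2 that difference was 0.

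On the HOXD1 side, control replicate 1 alone held a further block, from 176174147 to 176182418, over HAGLR, a long non-coding RNA gene between HOXD3 and HOXD1. Its total signal was 102749 steps, 1.98 times the lowest listed in that library. Counted in steps, which need not stand for the same strength in each library, this was below the lowest listed in each of the other 3 libraries. Relative to the end of the span, the outermost H3K27me3 edge on this side lay at -8.49 and -23.8 kb in the controls, and at -24.3 and -23.7 kb with succinate. The difference of -7.84 kb was about as large as the spread within groups (pooled SD 7.67; exact permutation p = 0.667). Without control replicate 1 it was -0.18 kb, and with equal numbers of peaks it was 0.075 kb, in the other direction.

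H3K27me3 covered 83.4% and 71.5% of the span in the controls and 71.3% and 71.7% with succinate. Control replicate 1 was high and the treatments overlapped. The difference was -5.92 percentage points (pooled SD 5.98; exact permutation p = 0.667), and it was 0.053 without control replicate 1. For the joined gene bodies the cover was 83.1% and 79.3% in the controls and 78.5% and 79.6% with succinate, a difference of -2.11 (pooled SD 1.98; exact permutation p = 0.667), which was -0.21 without control replicate 1 and -4.02 without control replicate 2. Of the bases of the span, 71.0% were covered in all 4 libraries and 15.8% in none. Another 12.5% were covered in a single library. Bases covered in both succinate libraries and in neither control made up 80 bp, and no base was covered in both controls and in neither succinate library.

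Between pairs of libraries, the shared bases divided by the bases covered in either came to 0.989 to 0.996 among control replicate 2 and the succinate libraries, and to 0.845 to 0.850 for the pairs with control replicate 1. Windows of the length of the span, 29838 over the chromosomes, had a median H3K27me3 cover of 0% in each library. As much cover as the HOXD span was found in 0.674% and 0.875% of them in the controls and in 1.68% and 1.40% with succinate.

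The HOXD blocks were also strong within their libraries. Signal per base in the peaks on the span was 1.67 and 1.52 times the average over all peaks in the controls, and 1.65 and 1.41 times with succinate. On the log2 scale the difference was -0.067 (pooled SD 0.13; exact permutation p = 0.667), and it changed direction without control replicate 1 (0.00046), without succinate replicate 2 (0.048) and at a common lowest total signal (0.055). By total signal, the HOXD13-side block ranked 219 of 19133 and 237 of 5813 in the controls, and 327 of 9985 and 274 of 5531 with succinate. The HOXD4-side block ranked 462 and 526 in the controls and 668 and 684 with succinate. Signal per base was higher on the HOXD13 side than on the HOXD4 side in 4 of 4 libraries, by 1.34 and 1.29 times in the controls and 1.24 and 1.13 times with succinate. The lowest of these ratios belongs to succinate replicate 2, whose HOXD13-side block also takes in the EVX2 flank.

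The other HOX clusters were read in the same libraries. HOXD cover exceeded that of HOXA by 30.7 percentage points ± 6.41 (SD, n = 4 libraries), in 4 of 4 libraries. It was below that of HOXC in 4 of 4 libraries, with a mean difference of -23.7 ± 5.09 (SD, n = 4 libraries). Against HOXB the mean difference was 4.11 ± 7.85 (SD, n = 4 libraries), with HOXD higher in both controls and lower in both succinate libraries. Over these 3 comparisons the exact sign-flip permutation p-values adjusted by Benjamini-Hochberg were 0.188 for HOXA, 0.188 for HOXC and 0.5 for HOXB, where the smallest unadjusted p is 0.125. The difference from HOXB became -4.11 when each span was widened by 20 kb on both sides. Of the 30 other HOX genes, 17 were wholly covered in every library and 5, all of HOXA, were overlapped in none.

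**Figure D3:**
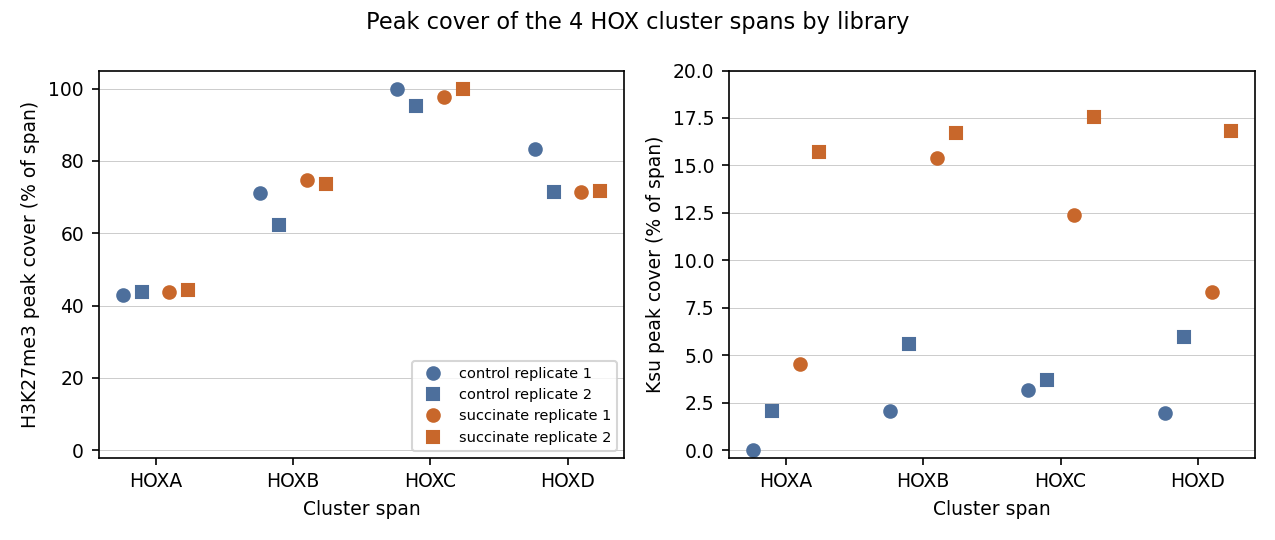
Peak cover of the spans of the 4 HOX clusters (percent of bases), H3K27me3 on the left and Ksu on the right, with 1 point per library. H3K27me3 cover of HOXD lies between that of HOXA and HOXC in every library, and Ksu cover of each cluster is higher in both succinate libraries than in both controls.

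Outside the cluster the mark reached EVX2 and no other flanking gene. Of 8 flanking protein-coding genes, H3K27me3 overlapped EVX2 in every library and the other 7 in none: ATF2, ATP5MC3 and LNPK on the HOXD13 side, and MTX2, HNRNPA3, NFE2L2 and AGPS on the HOXD1 side. Among 7 genes for PBX and MEIS proteins, the DNA-binding partners of HOX proteins, 2 were overlapped in every library and 4 in none, where 12.3% and 75% of all genes were. PBX4 was covered at 47.1% and 40.1% in the controls and 22.95% and 39.9% with succinate. It was the only gene of the 7 whose treatments did not overlap, with replicate 2 of both treatments nearly equal. Of all genes 1.13% were lower in both succinate libraries.

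Ksu covered less of the cluster than H3K27me3 did. H3K27me3 covered 74.5% of the span on average and Ksu 8.28%, a difference of 66.2 percentage points (exact permutation p = 0.0556, the smallest possible over 36 arrangements within treatments). The Ksu peaks on the span numbered 2 and 13 in the controls and 13 and 34 with succinate. Their median widths were 1011 and 429 bp in the controls and 583 and 509 bp with succinate, near the medians of the whole lists (977, 444, 582 and 469 bp). Signal per base in them was 0.889 and 0.949 times the average over all peaks in the controls and 0.830 and 0.910 times with succinate. This order depended on the peaks kept: on the log2 scale the value was 0.20 in succinate replicate 2 at equal numbers of peaks, 0.093 and 0.41 in the succinate libraries at a common lowest total signal, and 0.22 in control replicate 2 with the strongest 50% of peaks.

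No member was overlapped by Ksu in all 4 libraries, where 31.7% of all genes were. By library, 0 and 2 of the 9 members were overlapped in the controls and 4 and 6 with succinate. Of the 30 other HOX genes, 3 and 19 were overlapped in the controls and 18 and 24 with succinate. The Ksu lists held 76702 and 382019 peaks in the controls and 294568 and 629903 with succinate. The share of all genes by library is not given here, so these counts are not read as particular to the members. Of the 9 members 2, HOXD13 and HOXD11, had higher Ksu cover in both succinate libraries than in both controls, and none had lower. Of all genes 46.6% were higher and 0.484% were lower, and these genes were not matched to the members for length.

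HOXD13 had a Ksu cover of 0% and 1.42% in the controls and 6.47% and 16.4% with succinate. In control replicate 2 and succinate replicate 1 the peaks lay at 176088597-176088716 and 176088235-176088781. These places are inside the gene body used for cover but before 176092721, the start used for the promoter window. The succinate libraries were both higher, by 10.7 percentage points on average (pooled SD 5.00; exact permutation p = 0.333), and by 5.76 without succinate replicate 2. HOXD11 was at 0% in both controls and at 7.23% and 2.08% with succinate, a difference of 4.65 (pooled SD 2.57; exact permutation p = 0.333). It was 2.08 without succinate replicate 1 and 7.23 without succinate replicate 2. With equal numbers of peaks the differences were 0 for HOXD13 and 0.0060 for HOXD11. HOXD3 was at 0% and 13.5% in the controls and at 7.21% and 15.5% with succinate, where the groups overlapped.

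The other members had Ksu in at most 1 library. HOXD12 was at 24.4%, HOXD8 at 30.9% and HOXD1 at 7.10% in succinate replicate 2 and at 0% elsewhere. HOXD4 was at 34.9% in succinate replicate 1 and at 0% elsewhere. HOXD10 and HOXD9 had none in any library, as had 9.97% of all genes. The promoter windows of HOXD13, HOXD11 and HOXD3 were covered at 73.7%, 83.7% and 98.7% in succinate replicate 2, and that of HOXD4 at 100% in succinate replicate 1. In the other libraries these windows were at 0%, apart from that of HOXD3 at 0.67% in control replicate 2. The windows of HOXD12, HOXD10, HOXD8 and HOXD1 held no Ksu peak in any library, as did 70.9% of all promoters.

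Ksu covered 1.95% and 5.99% of the span in the controls and 8.35% and 16.8% with succinate. Both succinate libraries were higher, by 8.62 percentage points on average (pooled SD 4.69; exact permutation p = 0.333). Without succinate replicate 2 it was 4.38. For the joined gene bodies the difference was 6.58 (pooled SD 4.23; exact permutation p = 0.333), with 3.42 without succinate replicate 2 and 3.77 without control replicate 1. The whole lists also covered more of the chromosomes with succinate, 6.10% and 10.7% against 2.60% and 6.0%. Divided by that cover, the span was at 0.751 and 0.997 times the library in the controls and at 1.37 and 1.58 times with succinate. On the log2 scale this difference was 0.77 (pooled SD 0.23; exact permutation p = 0.333), and 29.4% of all windows of the same length were likewise higher in both succinate libraries than in both controls. At equal numbers of peaks the ratio no longer parted the treatments, with log2 values of -0.41 and 0.015 in the controls and -0.046 and 0.052 with succinate, a difference of 0.20, where 21.7% of all windows were higher in both succinate libraries.

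As much Ksu cover as the HOXD span was found in 45% and 45.9% of windows in the controls and in 24.8% and 11.1% with succinate. At equal numbers of peaks these shares were 45% and 38.6% in the controls and 38.3% and 39.6% with succinate. The span itself was then covered at 1.95% and 1.85% in the controls and 2.12% and 2.34% with succinate. The difference of 0.33 percentage points compares with 8.62 for all listed peaks.

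**Figure D4:**
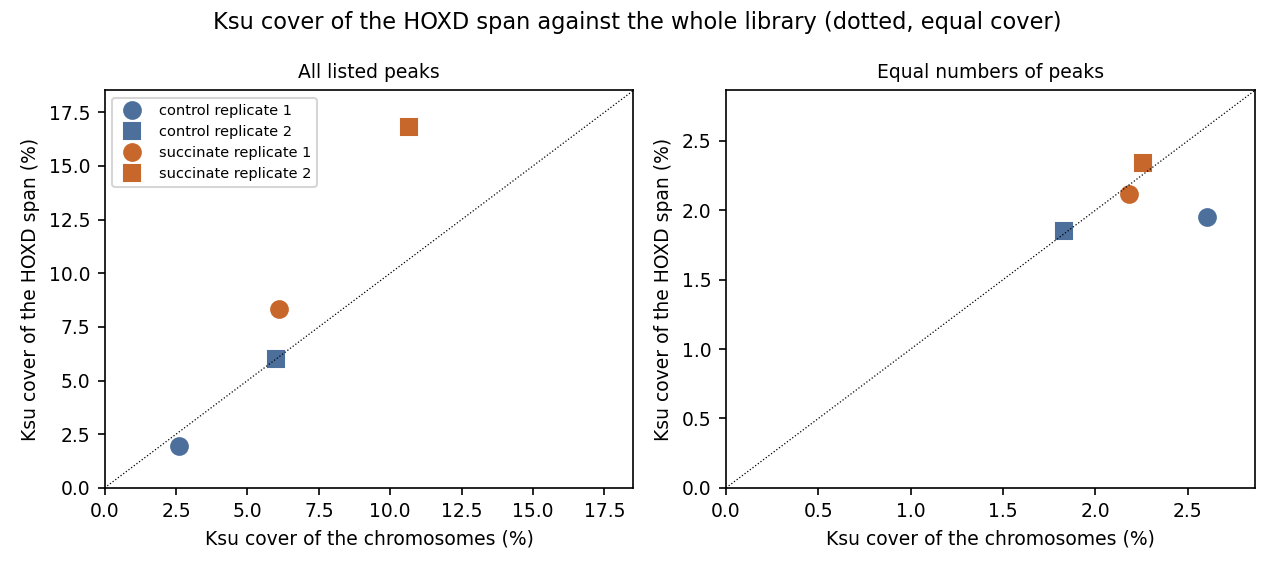
Ksu cover of the HOXD span against Ksu cover of the chromosomes, both in percent, with all listed peaks on the left and equal numbers of peaks on the right; each point is a library and the dotted line is equal cover. With all peaks both succinate points lie above the line, and with equal numbers the points of control replicate 2 and of both succinate libraries lie close to it.

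Within the span Ksu lay more between the member bodies than in them. Between genes here means outside the members, so that most of HAGLR and the non-coding HAGLROS and HOXD-AS2 count as between. HAGLROS had a Ksu cover of 0% and 42.9% in the controls and 67.8% and 35.4% with succinate. HOXD-AS2 was at 52.1% in succinate replicate 2 and at 0% elsewhere. The stretches between member bodies had a Ksu cover of 3.91% and 6.35% in the controls and 10.5% and 21.1% with succinate, and the bodies 0%, 5.62%, 6.23% and 12.5% in the same order. The difference was 4.36 percentage points ± 3.22 (SD, n = 4 libraries), higher between genes in 4 of 4 libraries (exact sign-flip permutation p = 0.125, the smallest possible). With peaks merged within 1 kb control replicate 2 turned, with 6.98% in the bodies and 6.76% over the span, and at a common lowest total signal it had no Ksu on the span (exact sign-flip permutation p = 0.25 in both settings). The 18854 bp between HOXD8 and HOXD4 held 1 and 0 Ksu peaks in the controls and 3 and 9 with succinate, and were covered by H3K27me3 at 100% in every library. The 15569 bp between HOXD3 and HOXD1, over HAGLR, held 1 and 5 Ksu peaks in the controls and 3 and 6 with succinate. There H3K27me3 was at 0% in 3 libraries and at 53.1% in control replicate 1. For H3K27me3 the difference between and inside bodies was -11.3 ± 7.99 (SD, n = 4 libraries; exact sign-flip permutation p = 0.25), and control replicate 1 was the only library with more between genes.

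Ksu peaks of different libraries met at few places in the cluster. No base of the span was covered in all 4 Ksu libraries, and 0.949% was covered in 3. The shared bases of 2 libraries divided by those covered in either were 0 between the controls and 0.063 between the succinate libraries. The highest values were those of same-numbered libraries across treatments, 0.185 for replicate 1 and 0.126 for replicate 2. The remaining pairs across treatments were at 0.075 and 0.036. The bases covered in 3 libraries formed 3 stretches: 78 bp between HOXD13 and HOXD12, 681 bp between HOXD8 and HOXD4 (chr2:176142611-176143291), and 222 bp in HAGLR. Each was covered in both succinate libraries and in 1 control. Bases covered only in both succinate libraries came to 572 bp, and those only in both controls to 0 bp. Those only in both replicate 1 libraries came to 984 bp, and those only in both replicate 2 libraries to 2334 bp.

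Ksu cover was set beside H3K27me3 in libraries of the same treatment and number. Under the H3K27me3 peaks of the span it was 2.34% and 5.10% in the controls and 6.70% and 17.0% with succinate. In the rest of the span it was 0% and 8.20% in the controls and 12.4% and 16.4% with succinate. Cover was higher outside the mark in control replicate 2 and succinate replicate 1, and higher under it in the other pairs, so no common direction was seen. Among the flanking genes, 5 of 8 had higher Ksu cover in both succinate libraries than in both controls, and 2 of the 7 PBX and MEIS genes had, where 46.6% of all genes were higher. Of these flanking and partner genes, 5 and 4 were overlapped by Ksu in every library, where 31.7% of all genes were.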

How the data were processed

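CUT&Tag peak lists of 8 libraries (2 each for control and succinate with H3K27me3 or pan-Ksu antibodies) were read. Per the submitters' processing notes the authors used SEACR and build hg38; the aligner, control track, scaling and threshold are not given in the sources used here. Each deposited list gives peaks of 1 library with total and highest signal, whose highest values were whole multiples of a step (100% of values, within 0.02 of a step).

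Peaks on 24 chromosomes were kept. Cover of gene bodies, spans, promoter windows and windows of 103421 bp was computed in Python 3.11.15 (numpy 2.4.6, pandas 2.3.3), tested on simulated data. Chromosomes were taken to end with their last peak or gene (3087 Mb). Treatments were compared by exact two-sided permutation over libraries, clusters by exact sign-flip. A gene was overlapped at 1 bp or more.

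Named were the 9 members, 8 flanking genes, 7 PBX and MEIS genes, the other HOX clusters and the 5 genes of most similar cover. Members and lists were chosen with earlier results of these data known. Alternatives were equal numbers of peaks (5531 and 76702), a common lowest total signal in steps and the strongest 50% of peaks. Further ones were merging, a width of 500 bp, a wider span, 50% cover and each replicate left out.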

Additional observations from a re-analysis of the deposited data

How the results depend on the processing

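Over 14 comparisons named in the design, 138 alternative values were computed. Of these, 118 stayed within the spread between replicates (for counts, within 1.5 times), 12 moved beyond it and 8 changed direction. The 118 include the values with the replicate number as a block, which cannot differ from the main ones. The exact tests could not give a p below 0.05 between treatments, so these are statements on values. Depth is unknown, and 2 libraries per group limit every comparison.

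For H3K27me3, equal numbers of peaks, a common lowest total signal and the strongest 50% of peaks each turned the high edge difference to 0.075 kb, since they leave out the HAGLR block. A common lowest total signal turned the relative signal difference to 0.055. Without each replicate in turn, span cover ranged from -11.9 to 0.053 percentage points and relative signal from -0.18 to 0.048. With spans 20 kb wider on each side, HOXD minus HOXB became -4.11, HOXD minus HOXA 20.3 and H3K27me3 minus Ksu 56.7.

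For Ksu, gene body cover differed by 0.84 at equal numbers, 0 at a common lowest total signal (both treatments at 0%) and 2.27 with the strongest 50%. Span cover differed by 0.33, 0.032 (equal numbers, common lowest total signal) and 13.4 (merged within 1 kb). Relative cover differed by 0.20 at equal numbers, 1.01 after merging and 1.01 with peaks of at least 500 bp; at a common lowest total signal it had no value, as control replicate 2 then had no peak on the span. The members overlapped by Ksu in every library numbered 0 to 2 when a replicate was left out, with HOXD13 and HOXD3 overlapped in the other 3 libraries without control replicate 1. Apart from peaks that a setting leaves out or joins, the cause was not tested.

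The replicate number as a block left each difference equal (-5.92 for H3K27me3 span cover and 8.62 for Ksu), with a smallest exact p of 0.5. Deviations of same-numbered libraries correlated across genes at 0.34 for H3K27me3 and 0.059 for Ksu, and nothing in the labels says that a number marks a shared batch. The comparisons between and inside gene bodies were added after the data were seen, and their means over libraries kept their direction under the alternatives run.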

Other observations

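The place of highest H3K27me3 signal in the HOXD13-side block was nearly the same in all 4 libraries. It lay between HOXD13 and HOXD12, from 176097743 to 176097772, a stretch of 30 bp about 2 kb before the HOXD12 start. Ksu peaks of both succinate libraries covered it, and those of neither control library did. A Ksu peak of control replicate 2 lay close by, from 176097158 to 176097594. The succinate peaks ranked 279871 and 108187 by total signal in their lists, so neither is among the 76702 kept at equal numbers of peaks. The place then lay under no Ksu peak in any library. In the HOXD4-side block, control replicate 1 and succinate replicate 2 had their highest place just before the HOXD3 start of the promoter window. The place lay at -778 and -776 bp (negative is before the start), under Ksu peaks of control replicate 2 and succinate replicate 2. In the other libraries it lay at -1798 bp from the HOXD4 start and 3896 bp past the HOXD8 start, under no Ksu peak. Over the whole lists, highest H3K27me3 places lay under Ksu peaks of the same treatment and number for 6.02% and 9.82% of peaks in the controls and 22.3% and 21.1% with succinate, where Ksu covered 4.26%, 6.79%, 12.6% and 16.3% of H3K27me3 bases.

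The 5 genes outside the HOX lists whose cover over the 8 libraries was nearest to the mean cover of the members, by Euclidean distance in percentage points, were SPMIP8 (9.69), ABCG1 (10.1), KCNN1 (10.8), GALNT9 (11.2) and SPTB (11.5). ABCG1, a cholesterol transporter, had an H3K27me3 cover of 85.0% and 70.5% in the controls and 82.9% and 73.3% with succinate, and a Ksu cover of 0%, 2.15%, 6.47% and 14.3% in the same order.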
